A study of Danio rerio with 8 samples.

Results

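Collagen genes were followed in dissected zebrafish hindbrains with and without activation of Fgf receptor 1. The members were all rows of the count table whose gene symbol, case ignored, starts with col, a type number, the letter a and a chain number. The rule used no measured value and gave 56 of 32189 rows. They were grouped by collagen type into 15 fibrillar rows (types 1, 2, 5, 11, 24 and 27), 6 basement membrane rows (type 4) and 35 other rows. Of these, 13 fibrillar, 5 basement membrane and 25 other rows passed the filter on low counts, so 43 of the 18075 genes tested were collagens.

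RNA was sequenced from 4 control and 4 ca_fgfr1 libraries, each from a single hindbrain dissected with the tissues around it. All 8 came from embryos of the strain Tg(hsp70:ca-fgfr1), bred as heterozygotes by outcrossing, so that clutch mates with and without the transgene could be compared. Controls were genotyped wt and ca_fgfr1 embryos carried constitutively active fgfr1. Both were kept at 28.5°C, heat shocked at 22 hours post fertilisation (hpf) for 30 min at 38.5°C, returned to 28.5°C for 2 h and collected at 24 to 25 hpf. The hsp70 promoter responds to heat in most tissues, so the receptor was not restricted to neural cells. Genotype was assigned by qPCR on the extracted RNA. Per the study's methods, qPCR also served to judge each dissection, and samples with contamination were not sequenced. In such tissue, fewer cells of a type and less RNA per cell cannot be told apart.

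Collagens are secreted proteins built from 3 chains wound into a triple helix. Fibrillar types assemble into the banded fibrils of connective tissue, while type 4 forms the sheet-like network of basement membranes, including the one that surrounds the neural tube. The other types coat fibrils, anchor epithelia, span membranes or surround cells. In the embryonic head, mesenchyme, notochord, skin and vessels are among their known sources.

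Library totals ranged from 13173019 to 20541155 counts. Levels are given in CPM (counts scaled by the TMM-adjusted library total), which is not corrected for gene length. Differences in CPM between genes are therefore not read as differences in transcript number. Sums of CPM over genes, and the part of each gene in them, also depend on gene length. The 8 libraries held counts for 46 to 54 of the 56 collagens. Control 1 stood apart: it was scaled by a factor of 0.811, where the factors of the remaining 7 libraries were 0.94 to 1.15, and its chi-square per degree of freedom against the other controls was 94.3 to 186, against 23.8 to 48.1 among those controls. The 2 rows named FGFR1 did not separate the groups (19.2 ± 5.54 against 20.3 ± 2.88 CPM, and 17.9 ± 7.53 against 13.1 ± 5.57 CPM, SD, n = 4), and the counts do not tell the transgene from the endogenous gene. Of 12 Fgf response genes, 11 had a log2 fold change above 0, and SPRY2, a feedback inhibitor of Fgf signalling, lay at 50.3 to 69.9 CPM in controls and 160 to 285 CPM in ca_fgfr1 (log2 fold change 1.77 ± 0.25 SE, edgeR adjusted p = 0.041).

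No collagen passed the test. The study called genes at a change of 2-fold or more and an adjusted p of at most 0.01. Normalised counts also had to be over 30 throughout either group. By these criteria in edgeR, 0 of 43 collagens were called, where 0.0166% of all genes tested were. With DESeq2, the tool of the study, 0 collagens and 45 of all genes tested were called. At an edgeR adjusted p of at most 0.05, 0 collagens were called, against 0.0498% of all genes. The smallest adjusted p among them was 0.537 in edgeR and 0.0755 in DESeq2, both for col17a1b. At an unadjusted p under 0.05, 9 collagens were lower in ca_fgfr1 and 0 were higher, where 3.21% of all genes were lower and 2.14% higher. With DESeq2, 11 were lower and 0 higher (all genes 4.44% lower and 2.37% higher). The libraries of both groups did not overlap for 2 tested collagens, col17a1b and col5a3b, both lower in ca_fgfr1 (all genes 1.44% lower and 1.90% higher).

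Although no single gene passed, the estimates lay on one side of 0. The log2 fold change (ca_fgfr1 minus control) was below 0 for 42 of 43 tested collagens, against 54.1% of all genes tested. The exception was col8a1a, at 0.28 ± 0.42 (SE). The median over the collagens was -0.61, against -0.04 over all genes, and it was -0.84 for fibrillar, -0.56 for basement membrane and -0.59 for other collagens. Of all 56 rows, filtered or not, 52 had a lower mean in ca_fgfr1, against 55.95% of all rows with a count. The 52 included 15 of 15 fibrillar and 6 of 6 basement membrane rows. Collagens share tissue and library and are not replicates, so these counts describe the gene family in these 8 libraries.

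**Figure D1:**
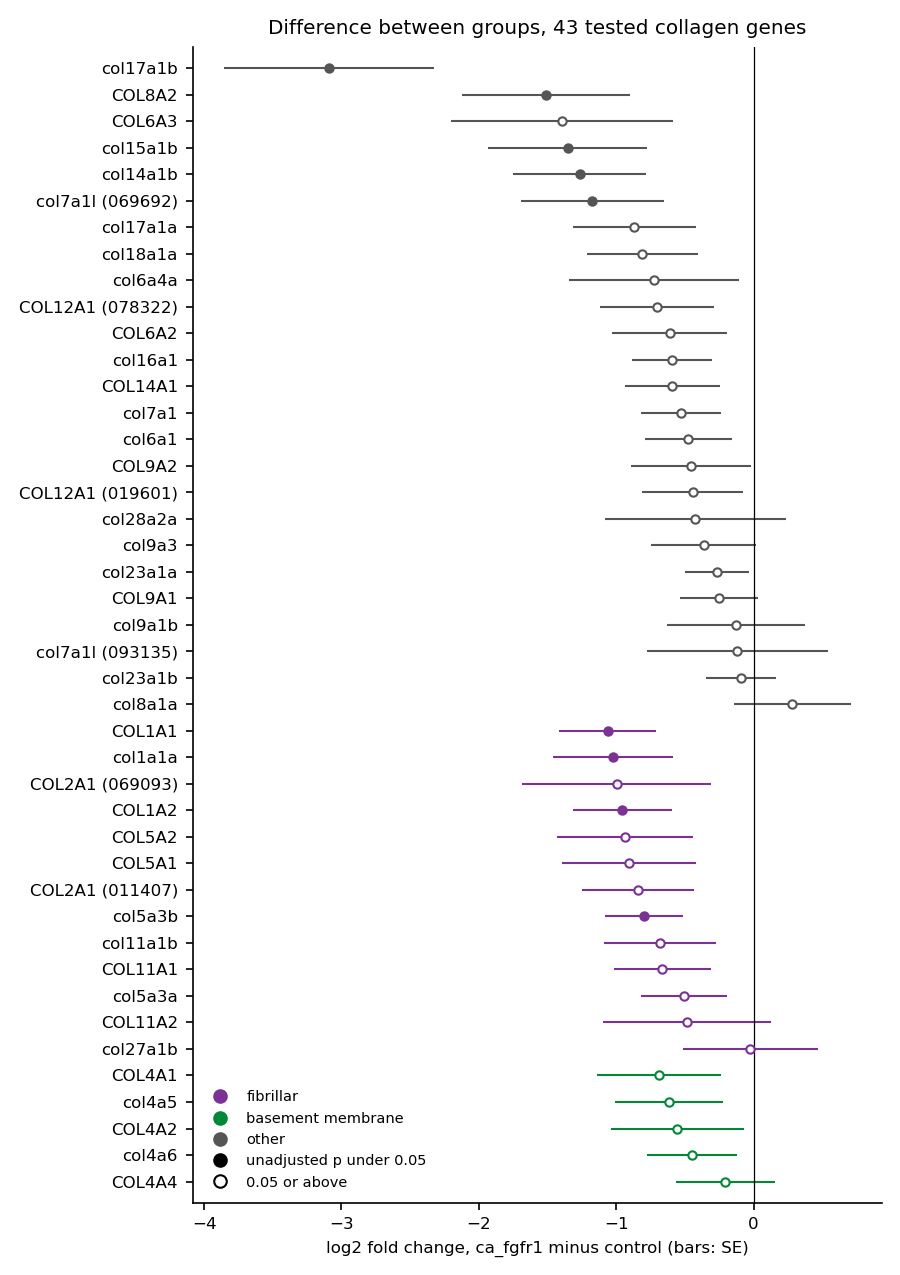
Log2 fold changes (ca_fgfr1 minus control) of the 43 tested collagens by class, with bars for standard errors and filled points for an unadjusted p under 0.05. Of these, 42 lie left of 0 and only col8a1a lies to the right, while no collagen passed the test.

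The spread within the control group was wide. Summed over all 56 rows, collagens reached 1473, 1745, 4244 and 3141 CPM in controls 1 to 4 and 2050, 1061, 1343 and 1623 CPM in ca_fgfr1 1 to 4. The groups overlapped: controls 1 and 2 lay among the ca_fgfr1 libraries, and controls 3 and 4 lay above all of them. Control 3 was the highest library for 25 of 43 collagens, against 18.3% of all genes, and control 4 for a further 10, against 12.7%. Control 1 was the lowest for 15, against 23.8% of all genes, and ca_fgfr1 2 for 12, against 14.4%. Against the median of the other group, collagens were above it 19, 30, 43 and 34 times of 43 in controls 1 to 4, and 10, 3, 1 and 7 times in ca_fgfr1 1 to 4. Over all genes these shares lay between 48.4% and 50.7%.

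The median standard deviation of log2 CPM was 0.75 among controls and 0.49 among ca_fgfr1 libraries for collagens, and 0.53 and 0.36 for all genes. Without control 3, the median was -0.42 over all collagens, -0.43 for fibrillar, -0.23 for basement membrane and -0.41 for other collagens. In that fit 3 collagens were lower at an unadjusted p under 0.05, where 1.74% of all genes were. Without control 4, 5 collagens were lower (all genes 1.72%), and without control 2, 14 were (all genes 2.89%). Without ca_fgfr1 2, 5 were lower (all genes 1.93%), and without ca_fgfr1 3, 4 were (all genes 2.36%). Without control 1, the library that stood apart, the median was -0.81 and 22 collagens were lower, in a fit where 13.2% of all genes were. In each of these fits 0 collagens were called and 0 were higher at that p.

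**Figure D2:**
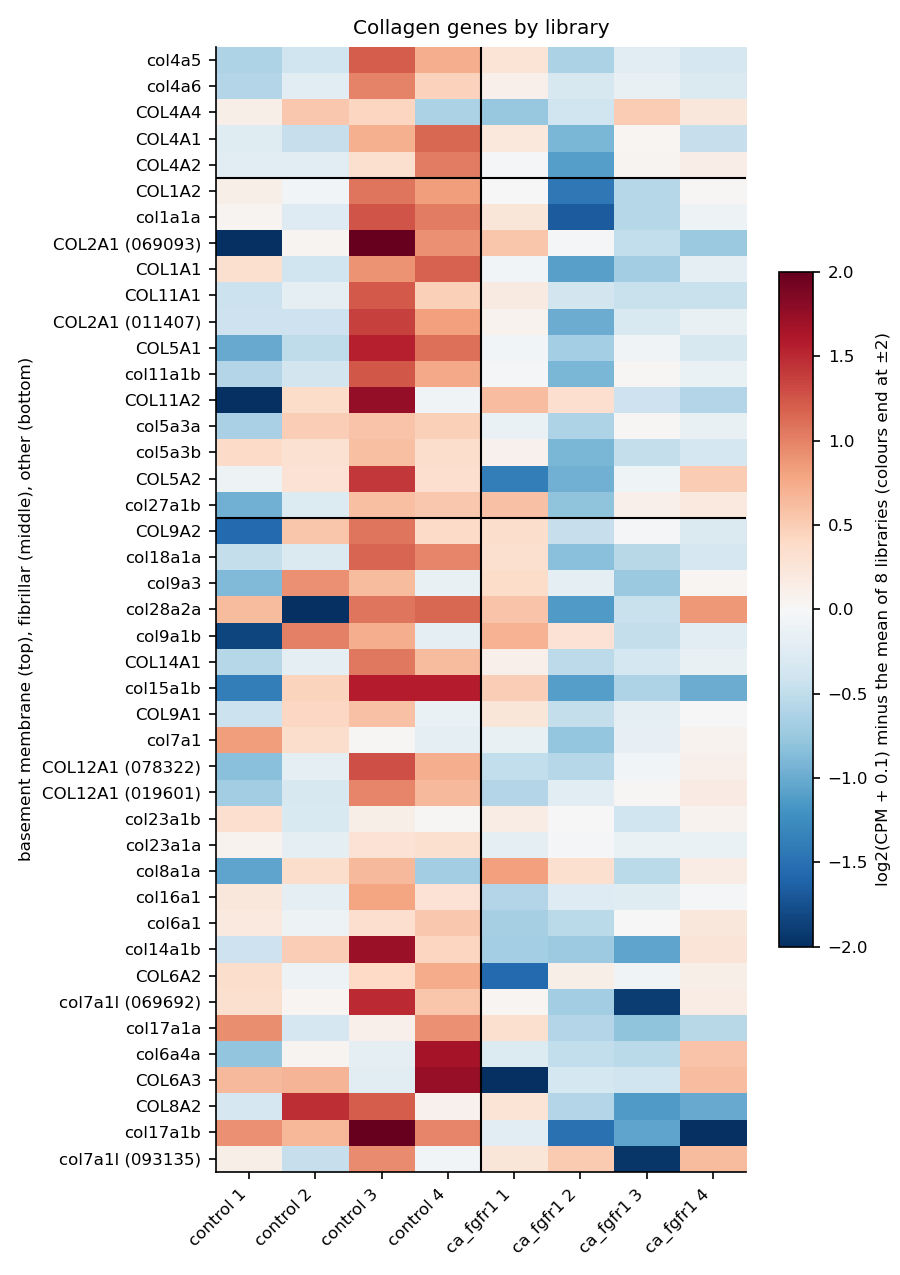
Log2 CPM of each tested collagen in each library, relative to the gene's mean over the 8 libraries. Controls 3 and 4 are highest for 35 of the 43 genes, and control 1 is lowest for 15.

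Fibrillar collagens summed to 1063, 1083, 3110 and 2294 CPM in controls 1 to 4 and 1360, 635, 876 and 1074 CPM in ca_fgfr1 1 to 4, or 1887 ± 998 against 986 ± 307 CPM (SD, n = 4), a ratio of 0.522. Of the 13 tested, 13 had a log2 fold change below 0, from -1.06 to -0.03 (all genes 54.1% below 0). At an unadjusted edgeR p under 0.05, 4 were lower (all genes 3.21%). Controls 1 and 2 lay close to the ca_fgfr1 libraries. Of the control mean of 1887 CPM, 497 CPM came from COL1A2, 437 CPM from col1a1a and 196 CPM from COL1A1.

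Type 1 collagen, the main fibril of bone, skin and tendon, is made from the chains of COL1A2, col1a1a and COL1A1. COL1A2 (ENSDARG00000020007) lay at 362, 323, 702 and 600 CPM in controls 1 to 4 and 335, 124, 225 and 340 CPM in ca_fgfr1 1 to 4, a log2 fold change of -0.96 ± 0.36. col1a1a (ENSDARG00000012405) lay at 287, 231, 664 and 565 CPM in controls and 328, 86.8, 187 and 258 CPM in ca_fgfr1 (-1.02 ± 0.43). COL1A1 (ENSDARG00000035809) lay at 159, 96.7, 239 and 289 CPM in controls and 124, 60.3, 79.0 and 113 CPM in ca_fgfr1 (-1.06 ± 0.35). In all 3, controls 3 and 4 were the highest and ca_fgfr1 2 the lowest, and the groups overlapped. Their unadjusted edgeR p-values were 0.022, 0.038 and 0.012, and each had an adjusted p of 0.866.

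Type 2 collagen, the fibril of cartilage and notochord sheath, was counted on 2 rows named COL2A1. The first (ENSDARG00000069093) lay at 28.2, 152, 648 and 276 CPM in controls and 217, 145, 105 and 87.8 CPM in ca_fgfr1 (-0.997 ± 0.69). Control 1 was its lowest library and control 3 its highest, so that the ca_fgfr1 libraries lay inside the range of the controls. The second (ENSDARG00000011407) lay at 73.3, 73.4, 251 and 172 CPM in controls and 102, 49.2, 79.3 and 88.3 CPM in ca_fgfr1 (-0.84 ± 0.41). Without control 3 the first row was at -0.16 and the second at -0.43.

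Types 5 and 11 regulate the width of type 1 and type 2 fibrils. COL5A1 lay at 40.0, 56.7, 237 and 173 CPM in controls and 78.2, 50.2, 77.2 and 64.7 CPM in ca_fgfr1 (-0.91 ± 0.49). COL11A1 lay at 80.8, 94.5, 255 and 151 CPM in controls and 123, 84.0, 79.6 and 80.0 CPM in ca_fgfr1 (-0.67 ± 0.35). For both, only controls 3 and 4 lay above the ca_fgfr1 range. The COL11A1 paralogue col11a1b lay at 10.7, 12.5, 38.2 and 27.3 CPM in controls and 15.7, 8.55, 16.4 and 14.8 CPM in ca_fgfr1 (-0.68 ± 0.41). COL11A2 lay at 2.81, 14.9, 39.3 and 10.9 CPM in controls and 17.8, 14.5, 8.62 and 7.65 CPM in ca_fgfr1 (-0.49 ± 0.61). Only control 3 was above the ca_fgfr1 range for COL11A2. COL5A2 lay at 2.81, 3.68, 8.16 and 3.81 CPM in controls and 1.098, 1.495, 2.82 and 4.31 CPM in ca_fgfr1 (-0.94 ± 0.50), and col5a3a at 6.28, 13.97, 14.8 and 13.9 CPM in controls and 9.02, 6.46, 10.05 and 8.95 CPM in ca_fgfr1 (-0.51 ± 0.31).

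The fibrillar gene whose groups did not overlap was col5a3b (ENSDARG00000101816), a type 5 chain. It lay at 9.18, 8.73, 10.8 and 9.03 CPM in controls and 7.44, 3.71, 5.06 and 5.49 CPM in ca_fgfr1 (-0.80 ± 0.28, edgeR adjusted p = 0.866). Here the controls were close together, unlike those of the type 1 and type 2 genes. The type 27 chain col27a1b lay at 0.468 to 1.59 CPM in controls and 0.538 to 1.58 CPM in ca_fgfr1, with a log2 fold change of -0.03 ± 0.49.

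**Figure D3:**
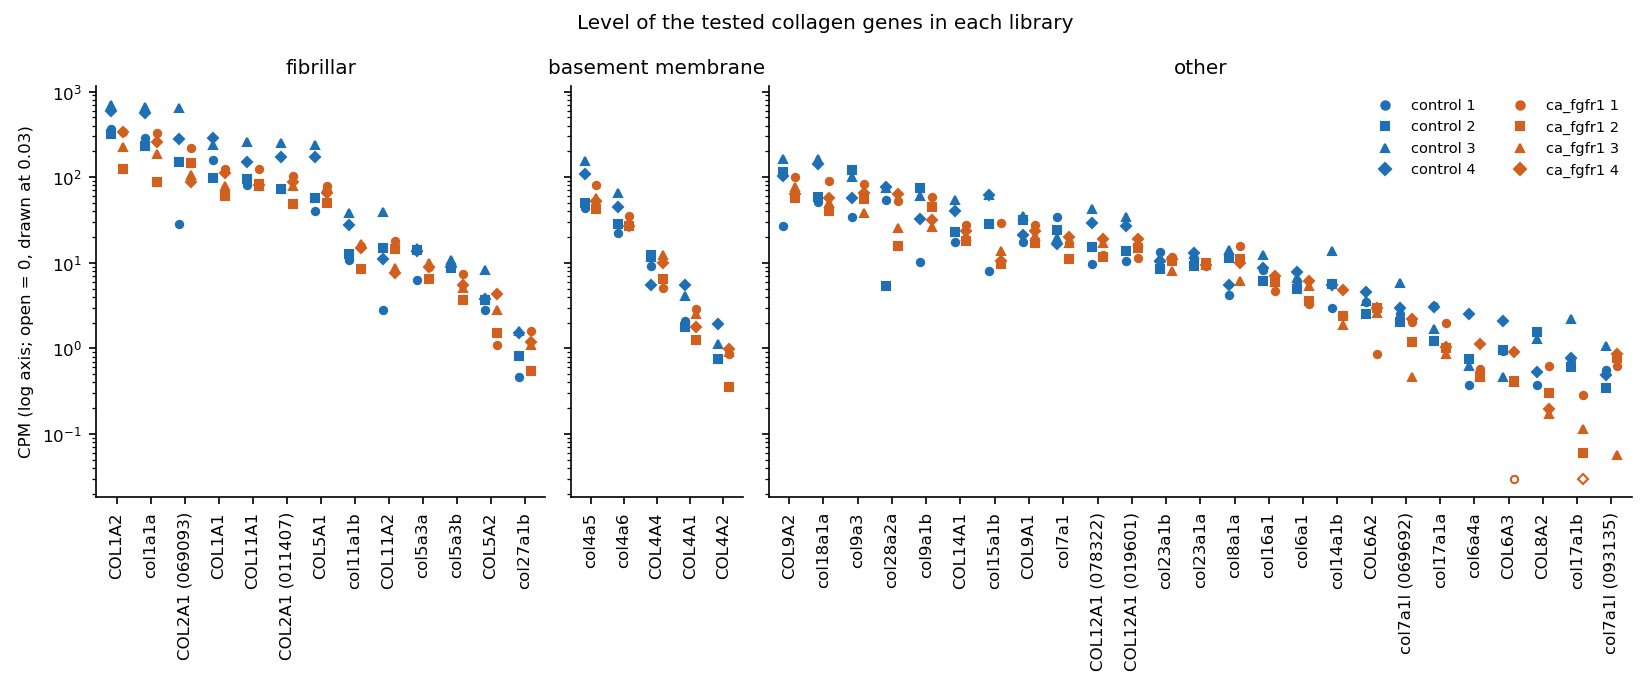
CPM of the 43 tested collagens in each of the 8 libraries on a log axis, with control and ca_fgfr1 libraries in different colours and a value of 0 drawn as an open point at 0.03. Controls 3 and 4 lie above the ca_fgfr1 libraries for COL1A2, col1a1a, COL1A1, COL5A1 and col4a5, and control 1 does so too for COL1A2 and COL1A1 but lies below them for COL5A1.

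Type 4 collagen summed to 78.0, 94.3, 237 and 169 CPM in controls and 125, 77.9, 103 and 92.5 CPM in ca_fgfr1, or 145 ± 73.2 against 99.5 ± 19.6 CPM (SD, n = 4), a ratio of 0.689. All 5 tested rows were below 0, from -0.69 to -0.21 (all genes 54.1% below 0). At an unadjusted edgeR p under 0.05, 0 were lower or higher (all genes 3.21% lower and 2.14% higher). The chains col4a5 and col4a6, which assemble together, had similar patterns. Of the type 4 control mean of 145 CPM, 89.1 CPM came from col4a5. col4a5 lay at 43.2, 50.4, 153 and 110 CPM in controls and 80.0, 42.99, 57.6 and 52.4 CPM in ca_fgfr1 (-0.61 ± 0.40). col4a6 lay at 22.0, 28.5, 66.2 and 45.3 CPM in controls and 35.5, 26.6, 29.8 and 27.1 CPM in ca_fgfr1 (-0.45 ± 0.33). The groups overlapped in both, again with controls 3 and 4 above.

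The chains COL4A1 and COL4A2, found in nearly all basement membranes, were sparsely counted. COL4A1 lay at 2.06, 1.77, 4.10 and 5.56 CPM in controls and 2.86, 1.26, 2.53 and 1.76 CPM in ca_fgfr1 (-0.69 ± 0.45). COL4A2 lay at 0.749, 0.750, 1.13 and 1.90 CPM in controls and 0.859, 0.359, 0.919 and 0.980 CPM in ca_fgfr1 (-0.56 ± 0.48). COL4A4, a chain of the mature kidney and inner ear network, did not follow controls 3 and 4, at 9.27, 12.5, 11.6 and 5.47 CPM in controls and 5.01, 6.46, 12.2 and 9.997 CPM in ca_fgfr1 (-0.21 ± 0.36). Its partner chain col4a3 was not tested. Its groups did not overlap, at 0.409 to 0.879 CPM in controls and 0.239 to 0.287 CPM in ca_fgfr1, levels of few counts.

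The other collagens summed to 332, 568, 897 and 678 CPM in controls and 566, 348, 363 and 457 CPM in ca_fgfr1, or 619 ± 235 against 433 ± 100.4 CPM (SD, n = 4), a ratio of 0.70. Of 25 tested, 24 were below 0 (all genes 54.1%). At an unadjusted edgeR p under 0.05, 5 were lower and 0 higher (all genes 3.21% lower and 2.14% higher).

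Multiplexins are basement membrane proteoglycans that join it to the matrix below. col15a1b lay at 7.96, 28.6, 62.2 and 62.3 CPM in controls and 29.4, 9.63, 13.6 and 10.4 CPM in ca_fgfr1 (-1.35 ± 0.58, edgeR adjusted p = 0.866). Control 1 was its lowest library. In the paper, single cell data from an earlier stage place col15a1b in cells of neighbouring hindbrain segments. col18a1a, whose product yields endostatin, lay at 51.7, 59.2, 162 and 143 CPM in controls and 90.2, 40.6, 49.3 and 57.4 CPM in ca_fgfr1 (-0.81 ± 0.40).

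Fibril-associated collagens sit on the surface of fibrils, and 9 of 9 tested were below 0 (all genes 54.1%), with a median of -0.46. The type 9 chains coat type 2 fibrils. COL9A2 lay at 26.6, 115, 165 and 102 CPM in controls and 101, 57.3, 76.1 and 64.0 CPM in ca_fgfr1 (-0.46 ± 0.44). col9a3 lay at 34.4, 120, 99.5 and 57.3 CPM in controls and 82.7, 56.2, 38.1 and 65.4 CPM in ca_fgfr1 (-0.36 ± 0.38). In both, control 1 was the lowest library and control 4 lay below control 2, unlike the type 1 genes. col9a1b lay at 10.2, 74.0, 60.4 and 32.1 CPM in controls and 59.4, 44.6, 26.3 and 31.6 CPM in ca_fgfr1 (-0.13 ± 0.50). COL9A1 lay at 17.3, 31.3, 35.1 and 21.3 CPM in controls and 27.8, 16.8, 20.4 and 23.2 CPM in ca_fgfr1 (-0.25 ± 0.28), and the groups overlapped in both. col14a1b, a type 14 chain that associates with type 1 fibrils, lay at 2.997, 5.73, 13.6 and 5.47 CPM in controls and 2.48, 2.39, 1.90 and 4.84 CPM in ca_fgfr1 (-1.27 ± 0.48, edgeR adjusted p = 0.866).

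The gene col17a1b, for a transmembrane chain that in mammals holds basal keratinocytes to the basement membrane, had counts of 8, 9, 43 and 16 in controls and 6, 1, 2 and 0 in ca_fgfr1. On CPM this was 0.749, 0.613, 2.21 and 0.781 against 0.286, 0.060, 0.115 and 0, where a count of 0 allows up to 0.196 CPM in that library (3 counts, counting error only). The groups did not overlap, and the log2 fold change was -3.09 ± 0.77 (edgeR adjusted p = 0.537), resting on few counts. Its paralogue col17a1a was at -0.87 ± 0.45. The anchoring fibril gene col7a1l (ENSDARG00000069692) lay at 2.53, 2.04, 5.80 and 2.98 CPM in controls and 2.05, 1.196, 0.460 and 2.22 CPM in ca_fgfr1 (-1.17 ± 0.52), a second col7a1l row was at -0.12 ± 0.66, and col7a1 was at 16.7 to 33.9 CPM in controls and 11.1 to 20.1 CPM in ca_fgfr1 (-0.53 ± 0.29).

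Control 1 was the highest library for 3 of the 43 tested collagens (col7a1, col17a1a and col23a1b), against 26.9% of all genes. For col17a1a it lay close to control 4 (3.091 against 3.075 CPM). The genes col17a1b and col7a1l were highest in control 3 instead. The list of 18 epidermal marker rows, tested or not, was highest in control 1, at a summed 22540 CPM, against 6591 to 13780 CPM in the other libraries. The part of epidermis in these values was not tested. Of the short chain collagens, which form hexagonal networks, COL8A2 lay at 0.375, 1.57, 1.28 and 0.537 CPM in controls and 0.620, 0.299, 0.172 and 0.196 CPM in ca_fgfr1 (-1.51 ± 0.61, edgeR adjusted p = 0.866), on at most 25 counts per library. col8a1a, the only tested collagen above 0, lay at 4.22, 11.4, 14.1 and 5.47 CPM in controls and 15.8, 11.1, 6.09 and 9.87 CPM in ca_fgfr1.

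The beaded filament type 6 chains had 4 of 4 tested rows below 0 (all genes 54.1%). col6a1 lay at 4.91 to 7.76 CPM in controls and 3.29 to 6.21 CPM in ca_fgfr1 (-0.47 ± 0.31), and COL6A2 at -0.61 ± 0.42. Control 4 was the highest library of both. COL6A3 had 0 counts in ca_fgfr1 1, which allows up to 0.143 CPM. col28a2a lay at 54.2, 5.32, 74.0 and 77.8 CPM in controls and 52.0, 15.9, 25.7 and 63.8 CPM in ca_fgfr1 (-0.43 ± 0.66), with control 2 far below the other libraries of its group. The 13 rows that failed the filter had at most 18 counts in any library and a mean of at most 0.473 CPM. Of these, 10 had a lower mean in ca_fgfr1, against 55.95% of all rows with a count, filtered or not.

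Chains that join in 1 molecule were compared by their ratio in each library, with 2 counts added to each. The ratio of col1a1a to COL1A2 stayed between 0.70 and 0.978 in all 8 libraries. The SD of its log2 value was 0.19, while the chains themselves had SDs of 0.92 and 0.78. The SD of the ratio was 0.26 for COL1A1 to COL1A2, 0.20 for col4a5 to col4a6 and 0.31 for COL4A1 to COL4A2. For the other pairs it was 0.42 for col6a1 to COL6A2, 0.50 for COL9A2 to col9a3, 0.80 for col4a3 to COL4A4 and 0.83 for COL5A1 to COL11A2. The ratio varied less than either of its chains for 6 of the 8 pairs, the exceptions being col6a1 to COL6A2 (0.424, with chains at 0.423 and 0.676) and col4a3 to COL4A4 (with chains at 0.63 and 0.53). These 8 pairs were chosen with values known, and the ratios share library and depth. Pairs of chains from different molecules were not compared. Whether a small spread of the ratio is particular to partner chains was therefore not tested.

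**Figure D4:**
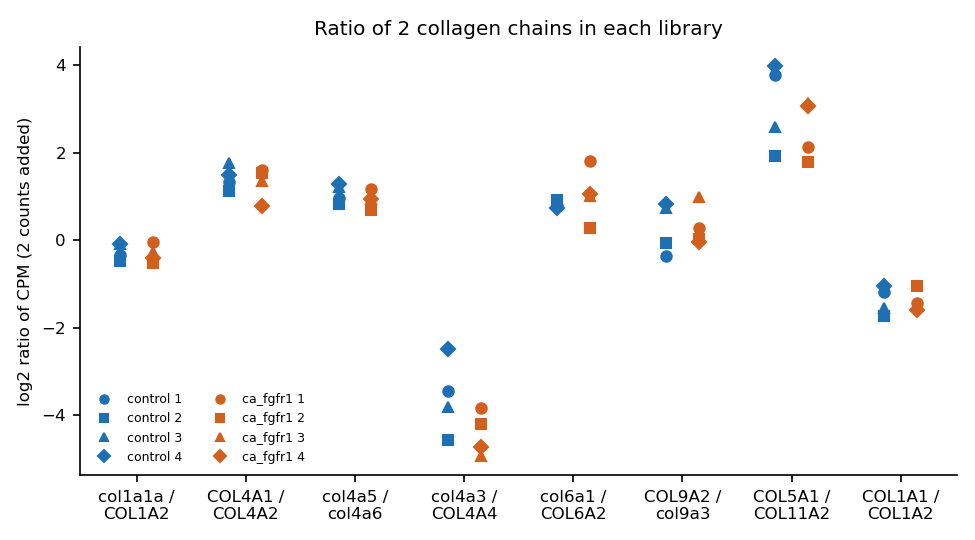
Log2 ratio of CPM of 8 pairs of collagen chains in each library, with 2 counts added to each. The col1a1a to COL1A2 ratio spans 0.70 to 0.978 on the linear scale, while the COL5A1 to COL11A2 ratio spans 3.43 to 15.7.

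Genes that make, mature, bind and turn over collagen were read as 4 lists. Over all genes tested, 54.1% were below 0. At an unadjusted edgeR p under 0.05, 3.21% were lower and 2.14% higher. Of 28 tested genes for chain processing in the endoplasmic reticulum, 14 were below 0 and 14 above, with a median of 0.00, and 1 had an unadjusted edgeR p under 0.05: CREB3L2, a transcription factor for secretory genes (-0.71 ± 0.25). Of 16 tested maturation genes, 12 were below 0 and 4 above (median -0.38). PXDN, which cross-links type 4 collagen, was at -1.42 ± 0.55 and loxl5b, a lysyl oxidase, at 0.85 ± 0.36. Of 9 receptor genes, 7 were below 0 (median -0.22) and 0 had such a p. Of 12 turnover genes, 5 were below 0 (median 0.03), with MRC2, a receptor that takes up collagen fragments, at 3.41 to 8.46 CPM in controls and 2.16 to 3.10 CPM in ca_fgfr1 (-1.19 ± 0.36) and a TIMP2 row (ENSDARG00000075261), an inhibitor of matrix proteases, at 3.56 to 7.21 CPM in controls and 7.53 to 10.98 CPM in ca_fgfr1 (0.69 ± 0.30). None of these genes passed an adjusted edgeR p of 0.05.

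Basement membrane partners are the laminins, nidogens and proteoglycans that lie beside type 4 collagen. All 20 tested rows were below 0, with a median of -0.80 (all genes 54.1% below 0, median -0.04). At an unadjusted edgeR p under 0.05, 5 were lower and 0 higher (all genes 3.21% lower and 2.14% higher). Summed CPM was 340, 512, 1163 and 1110 in controls and 539, 356, 450 and 530 in ca_fgfr1, so controls 3 and 4 again lay above the rest. A NID1 row (ENSDARG00000068710), a linker of laminin and type 4 collagen, lay at 3.37, 2.86, 4.21 and 3.86 CPM in controls and 1.29, 1.196, 1.26 and 1.57 CPM in ca_fgfr1 (-1.43 ± 0.32, edgeR adjusted p = 0.436). The groups did not overlap, and with DESeq2, as an alternative, the adjusted p of this row was 0.00955, the only one of the list at or below 0.05. LAMB1 (ENSDARG00000101209) was at -0.94 ± 0.41, a second NID1 row (ENSDARG00000103129) at -1.22 ± 0.52, HSPG2 at -0.98 ± 0.35 and LAMB2 at -1.97 ± 0.88. In contrast, 20 tested matrix partners had 9 rows below 0 and 11 above (median 0.04), and only a HAPLN1 row (ENSDARG00000102395) had such a p (-1.27 ± 0.48).

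Markers of the tissues around the hindbrain were read beside the collagens. Some of the lists are not exclusive to those tissues. The cartilage and notochord list held shh genes, and the paper used shh to mark the floor plate of the hindbrain. The otic list held atoh1a and pax2a, which the paper places in dorsal progenitors and at the midbrain-hindbrain boundary. Over all genes tested, 54.1% were below 0. Mesenchyme and neural crest markers had 12 of 18 tested rows below 0 and summed to 753 to 871 CPM in controls and 489 to 955 CPM in ca_fgfr1. Among them, PDGFRA had its highest values in controls 3 and 4 (24.1, 38.3, 91.7 and 80.9 CPM in controls against 20.04, 31.03, 28.3 and 31.7 CPM in ca_fgfr1, -1.08 ± 0.39). PRRX1 was at -0.70 ± 0.29, FOXC1 (ENSDARG00000091481) at -1.24 ± 0.27 (edgeR adjusted p = 0.405, DESeq2 adjusted p = 0.00412) and foxf2a at -1.03 ± 0.36. The markers with the most counts, COLEC12 and CXCL12, were at 0.06 ± 0.20 and 0.06 ± 0.28. Vascular markers had 9 of 10 rows below 0 and summed to 93.0, 137, 170 and 220 CPM in controls and 106, 119, 116 and 147 CPM in ca_fgfr1, with FLI1 at -0.40 ± 0.33, SOX7 at -0.08 ± 0.36, kdrl at -0.61 ± 0.45 and tek at -1.46 ± 0.56.

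Epidermal markers had 13 of 16 tested rows below 0 and summed to 9226 to 22540 CPM in controls and 6591 to 13420 CPM in ca_fgfr1, with krt4 at -0.47 ± 0.31, krt5 at -0.85 ± 0.29, krt18a.1 at -0.07 ± 0.37 and TP63 at -0.79 ± 0.21. Cartilage and notochord markers had 8 of 13 tested rows above 0 (summed 794 to 1090 CPM in controls and 927 to 1341 CPM in ca_fgfr1). Of these 13, 5 were higher and 1 lower at an unadjusted edgeR p under 0.05 (all genes 2.14% higher and 3.21% lower). None passed an adjusted edgeR p of 0.05. Rows above 0 included both SOX9 rows (1.44 ± 0.43 and 1.03 ± 0.38), an activator of type 2 collagen in cartilage, and tbxta (1.46 ± 0.51). FOXA2 was at -0.84 ± 0.33. Otic markers had 7 of 12 below 0 (739 to 1417 CPM in ca_fgfr1 and 850 to 1172 CPM in controls). Blood markers had 8 of 8 below 0 and were highest in control 3 (333 CPM, against 15.7 to 188 CPM elsewhere). Muscle markers had 4 of 5 tested rows below 0 (median -2.97). At an unadjusted edgeR p under 0.05, 3 were lower and 0 higher (all genes 3.21% lower and 2.14% higher). They reached a summed 661 CPM in control 4 and 7.03 to 84.0 CPM elsewhere, with MYOG at 0 in all libraries. Hindbrain markers had 9 of 14 below 0 and summed to 3001 to 3581 CPM in controls and 2261 to 3015 CPM in ca_fgfr1, led by SOX3 at 0.03 ± 0.20. The part of these tissues in the collagen values was not tested.

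**Figure D5:**
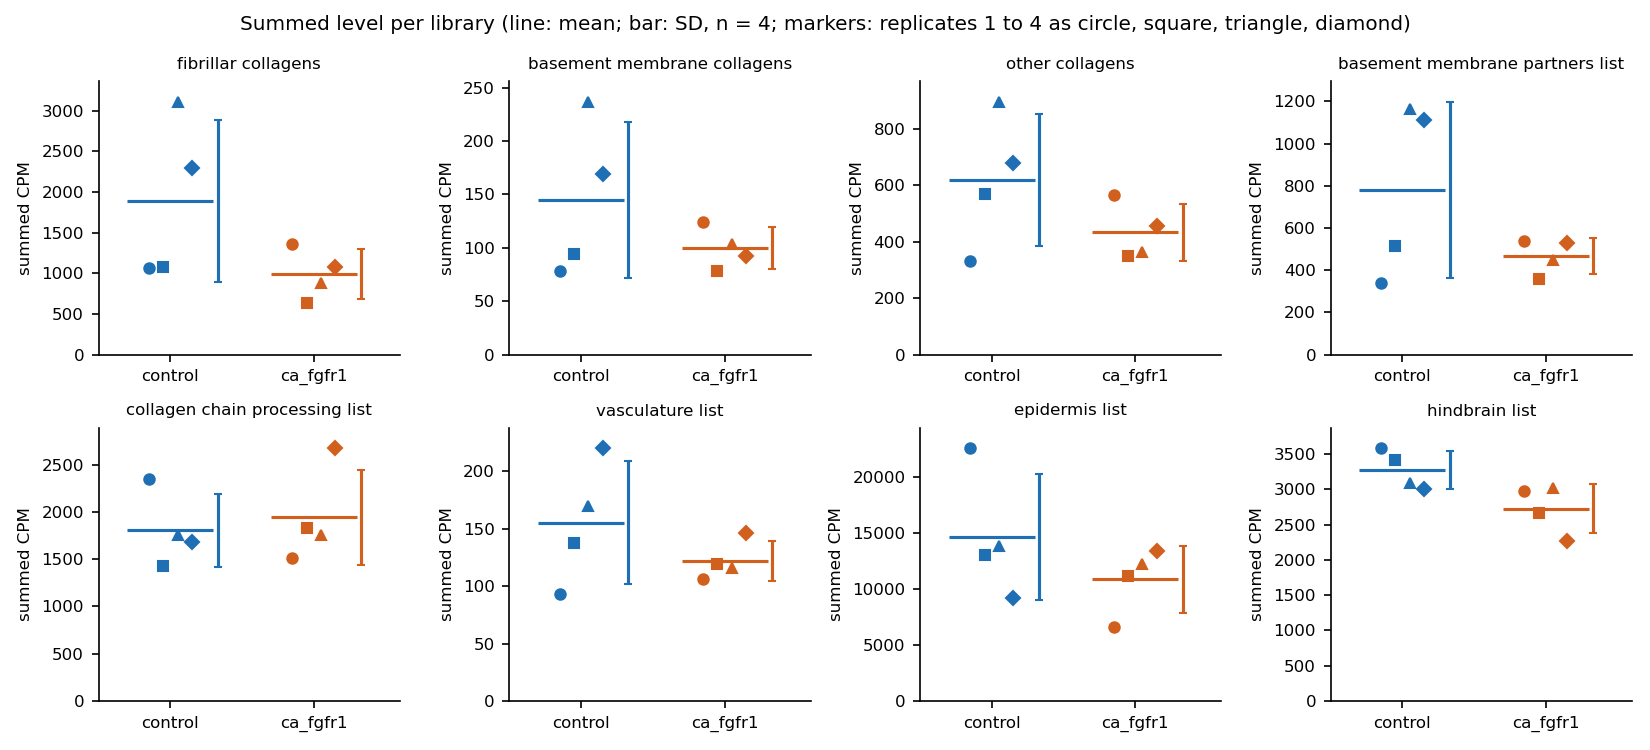
Summed CPM per library for the 3 collagen classes and 5 gene lists, with the mean and SD of each group (n = 4). Controls 3 and 4 are the highest libraries for all 3 collagen classes, basement membrane partners and vasculature. They are not for the chain processing, epidermis and hindbrain lists.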

How the data were processed

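The authors amplified cDNA, aligned reads to GRCz10 with STAR 2.5.1b and estimated gene counts with RSEM 1.2.31. The deposited values are expected counts, which the authors rounded to whole numbers. RSEM splits reads between similar genes, so paralogues are uncertain, and strand use is not given in the sources used here, so overlapping antisense genes are too. Column letters C and F were read as control and ca_fgfr1. A symbol table named 26350 of 32189 rows, 22 collagen rows in capitals, and 5 collagen symbols stand on 2 rows each.

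Counts were filtered (filterByExpr), scaled by TMM and tested with edgeR 4.0.16 (quasi-likelihood) in R 4.3.3 on 8 libraries without covariates, with Benjamini-Hochberg adjustment over 18075 genes. DESeq2 1.42.0 and limma 3.58.1 (voom) were alternatives, with other scalings, filters, a replicate block and each library left out. The study itself tested with DESeq2. The steps were tested on simulated counts. P-values measure the spread between libraries. The common biological coefficient of variation was 0.398. Collagens with values per library were the 12 with the highest mean CPM, those with an unadjusted p under 0.05, tested ones without overlap and their partner chains. COL4A1 and COL4A2 are also given per library, though they met none of these rules. Values given for others are ranges or fold changes. Summed CPM of a gene list covered all its matched rows, tested or not. Members and lists were chosen with earlier results of these data known.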

Additional observations from a re-analysis of the deposited data

Results flagged for a closer look

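Among 44 groups of 4 libraries examined, 2 had a library far from the other 3, by Dixon's ratio of the gap to the range, above the 95% critical value for 4 samples. Chance flags about 1 in 20 groups. COL11A1 in ca_fgfr1 had a ratio of 0.878, with ca_fgfr1 1 at 123 CPM above the other 3. For col28a2a in controls the ratio was 0.865, with control 2 at 5.32 CPM below the other 3.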

How the results depend on the processing

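In every alternative 0 collagens were called, 0 had an adjusted p of at most 0.05 and 0 were higher at an unadjusted p under 0.05. Genes called over the whole table were 3, and 1 with relative log expression, upper-quartile or total scaling, 6 without a filter, 5 at 5 CPM or more in 4 libraries, 45 with DESeq2, 6 with limma-voom, 0 with the replicate block, and 0 to 1 with a library left out. Collagens at an unadjusted p under 0.05 were 9, all lower, where 3.21% of all genes were lower at that p. They were 5 at 5 CPM or more in 4 libraries (30 tested, all genes 3.21%), 6 with the replicate block (all genes 1.81%), and 3 to 22 with a library left out, from 3 without control 3 (all genes 1.74%) to 22 without control 1 (all genes 13.2%). With a library left out, the median ranged from -0.81 to -0.42 for all collagens, -1.05 to -0.43 for fibrillar and -0.76 to -0.23 for basement membrane collagens. The first was -0.52 with the replicate block. Same-numbered libraries correlated at -0.29, -0.01, 0.22 and 0.19 in their deviations, so the numbers were not taken as pairs. The cause of these differences was not tested. The named genes col17a1b and COL8A2 rest on few counts.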
